A study of Mus musculus with 3 samples.

Results

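Vascular leptomeningeal fibroblasts were examined in single-cell libraries of the medial vestibular nucleus (MVN) of C57BL/6 mice. They were chosen by their UMIs (unique molecular identifiers, each 1 captured RNA molecule): a cell was a member when it held 200 or more genes and at least 3 of the 6 markers Dcn, Col1a1, Col3a1, Col1a2, Fbln2 and Mfap4 with 1 or more UMI, and fewer than 3 of the 5 smooth muscle genes Acta2, Myh11, Tpm2, Mylk and Myl9. In all, 70 of 13964 cells with 200 or more genes passed, out of 14876 barcodes.

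Leptomeningeal fibroblasts build the collagen-rich sheets of the pia and arachnoid that cover the brain, and related cells follow the larger vessels into the tissue as perivascular fibroblasts. They are known for laying down interstitial and basement membrane matrix, for transporters that exchange solutes with the cerebrospinal fluid, for gap junctions, and for secreted signals such as Cxcl12, retinoic acid and BMPs. Pericytes and vascular smooth muscle cells share the mural position around vessels but are marked by contractile and channel genes, and endothelial cells line the lumen.

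The 3 libraries were ULI, the MVN on the operated side 1 day after unilateral labyrinthectomy (UL) at postnatal day 20, ULC, the opposite MVN of the same 11 mice, and control, from 10 mice in which the study's methods say that only the bulla was opened. The treatment field of the labels names labyrinthectomy for all 3, so the reading of control rests on its source name and those methods. Each library pooled many mice and there was 1 per group, so no difference between groups has a replicate check. ULI held 23 fibroblasts of 4813 cells, ULC 20 of 4544 and control 27 of 4607, with 59566, 42116 and 152760 UMIs. The median fibroblast had 2653 UMIs in ULI, 2047 in ULC and 4386 in control, so control fibroblasts were the deepest, as were the other control cells (medians of 2094, 929 and 3169 UMIs in the same order).

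All 6 markers of the rule are matrix genes, and their levels describe the choice of cells and are no finding. In counts per 1000000 UMIs (CPM) of the summed fibroblasts, Col1a2, a chain of type I collagen, stood at 6531 CPM in ULI, 3704 in ULC and 8595 in control. Dcn, the proteoglycan decorin, stood at 7622, 5770 and 3358 CPM and was thus lowest in control. Mfap4, a microfibril-associated protein, stood at 1343, 356 and 3430 CPM and was found in 11 of 23, 7 of 20 and 25 of 27 cells. All 6 markers had a UMI in 7 ULI, 4 ULC and 24 control cells, and exactly 3 had one in 6, 6 and 1 cells. The ULI and ULC members thus lay closer to the threshold of the rule than the control members. Summed over the 6 markers, fibroblasts held 23503 CPM in ULI, 14341 in ULC and 28352 in control, against 91.8, 82.1 and 55.5 CPM in all other cells of those libraries.

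**Figure D1:**
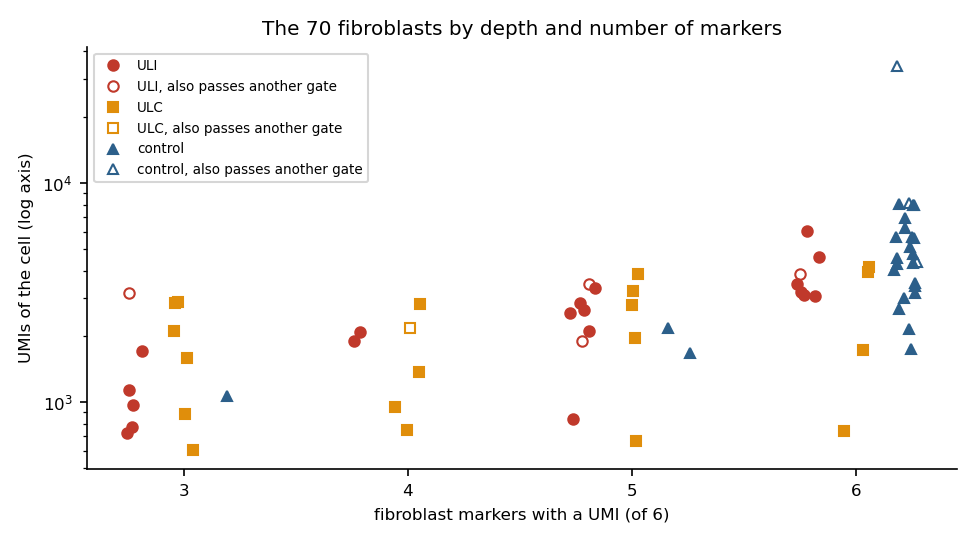
The 70 fibroblasts by number of the 6 rule markers with a UMI (x axis) and UMIs of the cell (y axis, log scale), with 1 symbol per cell, red circles for ULI, orange squares for ULC and blue triangles for control, and open symbols for cells that also pass the gate of another cell class. Most control cells (24 of 27) hold all 6 markers, and 1 open control symbol stands at 34275 UMIs.

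Genes that the rule did not use were then read in these cells. Of a list of 25 meningeal and perivascular fibroblast genes, the median fibroblast held 10 in ULI, 8.5 in ULC and 13 in control, and 68 of 70 held at least 3. No such count was made for other cell classes, and some genes of the list are as high or higher in them. The count thus describes the members and does not set them apart from their neighbours. Just inside the threshold, the 13 cells with 3 markers had 439 CPM of Lum, 634 of Pdgfra, 1025 of Itih2 and 1366 of Ttr. The 86 cells just outside, with 2 markers, had 10.8 CPM of Lum, 156 of Pdgfra, 38.9 of Itih2 and 52622 of Ttr, the transthyretin transcript that dominates choroid plexus epithelium. Of these 86 cells, 48 held a Ttr UMI and 37 passed the pericyte marker rule. The 57 cells with 4 to 6 markers had 983 CPM of Lum, 2184 of Pdgfra, 731 of Itih2 and 201 of Ttr. These values describe the threshold and were not tested. Only 1 cell held 3 or more of both the fibroblast and the smooth muscle markers, and the rule left it out.

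Markers of other cell types were read in the same cells. Of the 5 smooth muscle genes, 4 had a UMI, at 353 CPM summed in ULI, 237 in ULC and 72.0 in control fibroblasts, and Myh11 was at 0. Of 6 endothelial markers, 3 had a UMI (1024, 807 and 1335 CPM), and Cldn5, Pecam1 and Ly6c1 were at 0. All 6 ependymal markers were at 0, microglial markers came to 102 CPM and macrophage markers to 39.3 CPM over the libraries. Pericyte markers stood far higher, at 8663 CPM in ULI, 4274 in ULC and 6003 in control, of which most was Vtn, the plasma and matrix protein vitronectin (5036, 3870 and 5734 CPM). Oligodendrocyte markers were high in control alone, at 67.2 CPM in ULI, 23.7 in ULC and 4118 in control, where 16 fibroblasts held a UMI of them. The marker rules (gates) of other classes were met by 9 fibroblasts, of which 8 passed the pericyte gate (4 ULI, 1 ULC and 3 control) and 2 the oligodendrocyte gate (both control).

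A pair of cells weighed on the group values. The deepest control fibroblast held 34275 UMIs, 22.4% of all control fibroblast UMIs, and passed the oligodendrocyte gate. It held 97.2% of the control UMIs of Cldn11, a tight junction gene of myelin and of the arachnoid, but 1.13% of those of Lum and 4.11% of those of Col1a2. In ULI, all 138 UMIs of the pericyte gene Rgs5 lay in 1 fibroblast of 3171 UMIs, which also held 23 UMIs of Abcc9 and 37 of Vtn. The main group counts below are therefore also given without the 9 fibroblasts that pass another gate.

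Genes that set fibroblasts apart from their vascular neighbours were sought in UMI sums of 4 classes in 3 libraries (70 fibroblasts, 201 pericytes, 249 vascular smooth muscle cells and 386 endothelial cells). The test was edgeR's quasi-likelihood test with the library as a term and Benjamini-Hochberg adjustment over 8537 genes, and the 24 genes of the 4 gates were left out. ULI and ULC came from the same mice, so the 3 libraries are not 3 separate sets of animals, and the p-values measure the spread between these 3 libraries alone. At an adjusted p under 0.05, 748 genes (8.76%) differed from pericytes, 319 higher in fibroblasts (3.74%) and 429 lower (5.03%). Against smooth muscle cells 1109 genes differed (13%), 432 higher (5.06%) and 677 lower (7.93%), a split that came to 542 and 550 with median-of-ratios size factors. Against endothelial cells 1523 differed (17.8%), 664 higher (7.78%) and 859 lower (10.1%). With those size factors 399 were higher and 377 lower against pericytes, and 763 higher and 690 lower against endothelial cells. Whether more genes were higher or lower thus depended on the normalization. The calls fell to 429, 650 and 915 without ULI and to 473, 726 and 930 without control, and were 570, 847 and 1162 without ULC. The median log2 difference over all genes was -0.16, -0.24 and -0.39 against pericytes, smooth muscle and endothelial cells, and size factors moved it up by 0.16, 0.23 and 0.26. In all, 150 genes (1.76%) were higher in fibroblasts than in each of the 3 other classes, and 107 (1.25%) lower.

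Lum, the small proteoglycan lumican, led the genes higher than in all 3 classes. It stood at 672 CPM in ULI, 522 in ULC and 1159 in control fibroblasts and at 0 UMIs in pericytes, smooth muscle and endothelial cells of every library. Against the 3 counts that a sum of 0 allows over a class, this was at least 118-fold higher than in pericytes, at least 181-fold than in smooth muscle cells and at least 432-fold than in endothelial cells. Lum UMIs were found in 50 fibroblasts (71.4%), and in 0 of 386 endothelial cells, which allows a share of up to 0.777% of cells with a Lum UMI, not of cells expressing it, at medians of 2944.5 and 2723.5 UMIs per cell. No edgeR alternative run ended the call for Lum, and under DESeq2's Wald test its adjusted p was 0.217, 0.153 and 0.0692 against the 3 classes. Pdgfra, the receptor of platelet-derived growth factors on fibroblasts, stood at 1511, 2778 and 2075 CPM in fibroblasts, and at no more than 18.4 CPM in any library of the other classes. Its log2 difference was 7.0 (SE 0.52, adjusted p 1.32e-38) against pericytes, 8.66 (SE 0.58, 2.07e-47) against smooth muscle cells and 7.85 (SE 0.48, 9.30e-57) against endothelial cells. Its paralogue Pdgfrb, the pericyte receptor, was lower than in pericytes, at 118, 214 and 170 CPM in fibroblasts against 516, 914 and 773 CPM (log2 difference -2.21, SE 0.41, adjusted p 2.88e-06). The 2 receptors thus separated these classes in opposite directions in every library.

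Collagen genes outside the rule were mostly higher. Beside this and the later lists stand the shares of all genes higher than in pericytes (3.74%), smooth muscle (5.06%) and endothelial cells (7.78%). The shares of all genes lower were 5.03%, 7.93% and 10.1%. Of 16 tested, 9 were higher than in pericytes, 10 than in smooth muscle cells and 14 than in endothelial cells, with medians of 2.49, 2.93 and 6.96 on the log2 scale (6.33 with genes at 0 in endothelial cells set to their bound). Col15a1, a basement membrane collagen that bridges to the interstitial matrix, stood at 1578 CPM in ULI, 950 in ULC and 3535 in control fibroblasts. It was at 0 in pericytes and smooth muscle cells and was at least 334-fold and 512-fold higher than there, and against endothelial cells its log2 difference was 7.37 (SE 0.49, adjusted p 4.90e-49). Col6a1, a chain of the beaded filament collagen VI, stood at 1309, 1258 and 1997 CPM, against 59.9, 14.5 and 0 CPM in pericytes (log2 difference 5.38, SE 0.47, adjusted p 1.91e-27), and it was at 0 in endothelial cells. Both collagens set fibroblasts apart from every neighbour. Col4a1, a main chain of the vessel basement membrane, did not, and stood at 1729, 2612 and 3142 CPM, with log2 differences of -0.50 (adjusted p 0.327) against pericytes and 0.16 (0.831) against smooth muscle cells, neither past the test. Col4a5, another chain of collagen IV, was higher than in all 3 (1494, 1163 and 1414 CPM, log2 differences 3.34, 2.09 and 9.80). Col8a1 was the only collagen lower than in pericytes and smooth muscle cells, with UMIs in 3 fibroblasts.

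The promoters of a few of these genes show the sequence that lies ahead of them. The CCAAT box (CCAAT on either strand) is a common promoter element and has been described in type I collagen promoters, and TGANTCA is the core bound by the AP-1 factors of the Fos and Jun families. The sequences are RefSeq's, in GRCm38.p6, from 250 bases before to 50 bases after a transcript start, with the matches in capitals. The Col1a2 window is chr6:4505368-4505667 on the plus strand, with matches 109 bases and 0 bases before the start. The window of Slc13a4, a sulphate carrier described further on, is chr6:35308077-35308376 on the minus strand, with matches 170, 142 and 70 bases before the start. The Col6a1 window is chr10:76725995-76726294 on the minus strand, with 1 TGANTCA match 90 bases before the start.
Col1a2: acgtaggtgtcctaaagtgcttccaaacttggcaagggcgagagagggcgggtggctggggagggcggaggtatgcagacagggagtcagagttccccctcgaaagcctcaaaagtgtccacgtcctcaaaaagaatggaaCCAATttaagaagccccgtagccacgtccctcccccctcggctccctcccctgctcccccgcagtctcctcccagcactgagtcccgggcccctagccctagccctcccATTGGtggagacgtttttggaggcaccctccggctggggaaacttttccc
Slc13a4: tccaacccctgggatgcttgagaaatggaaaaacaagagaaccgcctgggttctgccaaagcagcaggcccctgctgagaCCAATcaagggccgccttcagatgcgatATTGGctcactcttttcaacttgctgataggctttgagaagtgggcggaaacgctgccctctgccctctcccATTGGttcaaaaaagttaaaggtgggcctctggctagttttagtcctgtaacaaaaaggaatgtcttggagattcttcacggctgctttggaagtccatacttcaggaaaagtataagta
Col6a1: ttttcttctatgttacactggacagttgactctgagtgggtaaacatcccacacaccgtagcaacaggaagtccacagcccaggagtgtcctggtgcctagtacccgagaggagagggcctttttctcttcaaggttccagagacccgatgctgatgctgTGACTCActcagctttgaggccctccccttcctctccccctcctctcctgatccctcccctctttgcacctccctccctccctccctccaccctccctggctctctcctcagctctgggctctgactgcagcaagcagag
CCAAT was found in 37.4% of 32851 such windows of the mouse genome, and TGANTCA in 7.81%. Of the 150 genes higher than in all 3 classes, 109 matched the table, and their 143 windows held CCAAT in 32.2% and TGANTCA in 11.2%. The matches describe letters in these windows only.

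Proteoglycans and elastic fibre genes were divided. Of 9 proteoglycan genes, 4 were higher than in pericytes, 5 than in smooth muscle cells and 6 than in endothelial cells, with medians of 1.24, 1.83 and 7.38 (6.80 at the bound). Prelp, which anchors basement membranes to collagen, stood at 2686 CPM in ULI, 1710 in ULC and 1990 in control fibroblasts, against 318, 377 and 185 CPM in pericytes (log2 difference 2.71, SE 0.34, adjusted p 5.82e-13). Aspn, or asporin, ran the other way, with 2 UMIs in 1 fibroblast (33.6 CPM in ULI, 0 in ULC and control) against 438, 537 and 490 CPM in pericytes (log2 difference -6.00, SE 0.68, adjusted p 1.69e-16). Ogn, or osteoglycin, did not differ past the test from pericytes (1041, 546 and 367 CPM, log2 difference -0.59, adjusted p 0.372). Of 12 elastic fibre and adhesive genes, 6, 6 and 10 were higher than in pericytes, smooth muscle and endothelial cells. Tgfbi, a collagen-binding protein induced by TGF-beta, stood at 957, 1947 and 1021 CPM (log2 differences 3.53, 7.47 and 9.62), and Efemp1, a fibulin, at 504, 665 and 308 CPM. Fn1, the fibronectin of vessel walls, was lower than in endothelial cells, at 0, 71.2 and 6.55 CPM in fibroblasts against 3082, 2596 and 1830 CPM (log2 difference -7.30, SE 0.51, adjusted p 8.95e-45). Sparc, a collagen-binding glycoprotein, was high in all 4 classes and differed past the test from none (7974, 4108 and 8752 CPM in fibroblasts, log2 differences -0.29, 0.09 and -0.27).

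The basement membrane list was divided. Of 16 genes, 3 were higher and 3 lower than in pericytes, 7 higher and 2 lower than in smooth muscle cells, and 9 higher and 2 lower than in endothelial cells. Nid1, the linker nidogen, stood at 5204 CPM in ULI, 1971 in ULC and 5348 in control fibroblasts against 3969, 3481 and 3776 CPM in pericytes, a log2 difference of -0.06 (adjusted p 0.965). It was higher than in endothelial cells, by 2.70 (SE 0.29, adjusted p 9.16e-19). Lama1, the laminin chain known from the pial membrane, was found in 30 fibroblasts at 269, 309 and 281 CPM and was higher than in each class (log2 differences 2.95, 6.53 and 4.71). Agrn, the heparan sulphate proteoglycan agrin, was lower than in each (83.9, 23.7 and 78.6 CPM in fibroblasts, 692, 435 and 631 CPM in pericytes, log2 difference -3.28, SE 0.46, adjusted p 1.28e-10). Lama4, the vascular laminin chain, was lower than in pericytes (log2 difference -2.01, adjusted p 0.000426, and 0.154 without ULC). Fibroblasts and pericytes thus differed in Lama1 and agrin, in Lama4 only with ULC in the fit, and not past the test in nidogen.

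Matrix proteases and their inhibitors were higher in 7 of 15 genes against pericytes, 8 against smooth muscle cells and 11 against endothelial cells. Mmp2, the gelatinase, stood at 403 CPM in ULI, 665 in ULC and 550 in control fibroblasts, against 9.22, 0 and 65.3 CPM in pericytes (log2 difference 4.45, SE 0.64, adjusted p 4.31e-10). Serping1, the C1 inhibitor, stood at 1074, 1377 and 1362 CPM (log2 differences 3.16, 1.39 and 8.62). Spp1, the secreted phosphoprotein osteopontin, stood at 1595, 2018 and 1375 CPM, against 516, 116 and 0 CPM in pericytes and at most 2.86 CPM in smooth muscle cells. Under DESeq2's Wald test the calls of Mmp2 and Spp1 against pericytes were lost (adjusted p 0.107 and 0.284). All 3 were high in each of the libraries.

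**Figure D2:**
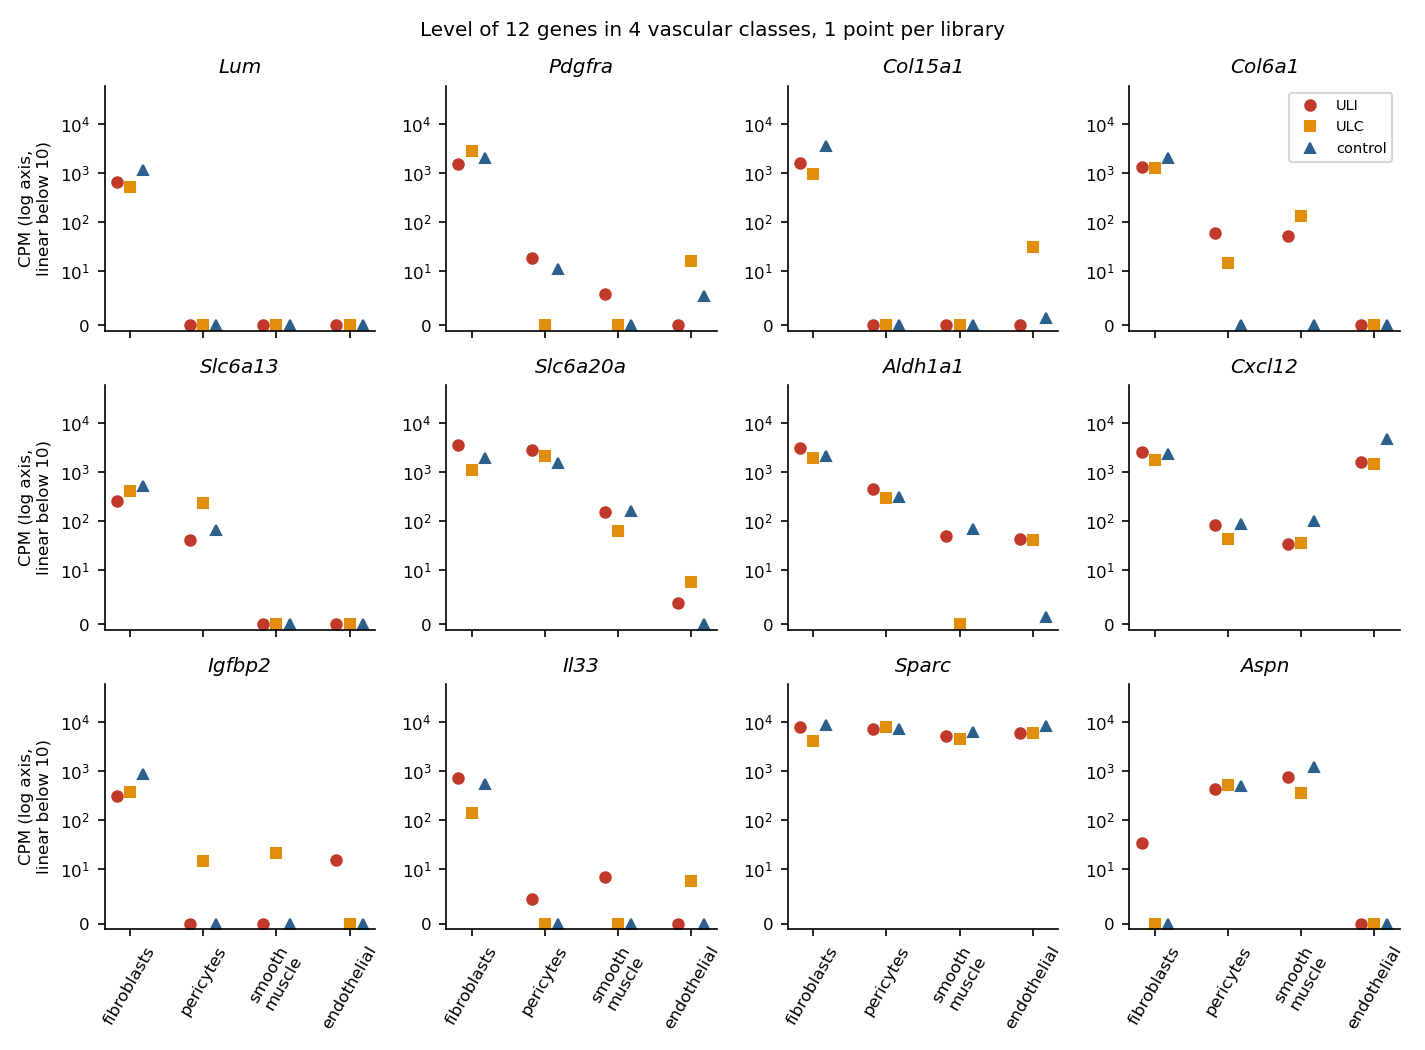
Levels of 12 genes in CPM (y axis, log scale above 10) in fibroblasts, pericytes, vascular smooth muscle cells and endothelial cells, with 1 point per library (red circles ULI, orange squares ULC, blue triangles control). Lum lies between 522 and 1159 CPM in fibroblasts and at 0 in the other 3 classes, and Sparc lies between 4108 and 8752 CPM in fibroblasts, with all other classes near that range.

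A list of meningeal and perivascular fibroblast genes was read next. Of 21 tested, 9 were higher than in pericytes, 14 than in smooth muscle cells and 17 than in endothelial cells, with medians of 1.47, 2.09 and 6.37 (6.35 at the bound). Not all genes of the list marked these cells. Ly6a had no UMI in fibroblasts and was lower than in endothelial cells (log2 difference -12.81, SE 0.72, adjusted p 1.44e-67). Tbx18, a transcription factor of meningeal and mural cells, stood at 974 CPM in ULI, 641 in ULC and 1159 in control fibroblasts, against 203, 290 and 141 CPM in pericytes (log2 difference 2.09, SE 0.39, adjusted p 3.62e-06). Foxc1, needed for the meninges to form, stood at 1074, 712 and 465 CPM and did not pass the test against pericytes (0.25, adjusted p 0.803) or smooth muscle cells (0.55, adjusted p 0.372). Zic1, a hindbrain and meningeal zinc finger factor, did not pass the test against pericytes (1108, 594 and 1021 CPM in fibroblasts, 890, 638 and 990 CPM in pericytes). Both factors were higher than in endothelial cells, at 1.34 (Foxc1) and 8.54 (Zic1) on the log2 scale. Vim, or vimentin, a filament often used to mark fibroblasts, was lower than in smooth muscle cells, at 873, 214 and 537 CPM against 6381, 4071 and 4592 CPM (log2 difference -3.49, SE 0.31, adjusted p 2.24e-26), and lower than in endothelial cells (log2 difference -1.72). S100a6, a calcium-binding protein of pial cells, was higher than in each class (1142, 332 and 1551 CPM, log2 differences 4.68, 3.62 and 6.80).

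Transporters formed a second group. Of 13 tested, 8 were higher than in pericytes, 9 than in smooth muscle cells and 8 than in endothelial cells, with medians of 1.96, 4.80 (4.55 with genes at 0 in smooth muscle cells set to their bound) and 5.56. Slc6a13, the GABA and taurine carrier GAT2 of the leptomeninges, stood at 252 CPM in ULI, 404 in ULC and 517 in control fibroblasts, at 41.5, 232 and 65.3 CPM in pericytes and at 0 in the other classes. Its difference from pericytes was 1.96 on the log2 scale (SE 0.56, adjusted p 0.00852, and 0.283 without control and 0.0956 without ULI). Slc6a20a, a proline carrier, was high in pericytes too (3526, 1092 and 1984 CPM in fibroblasts, 2798, 2146 and 1545 CPM in pericytes, log2 difference -0.17, not past the test) and higher than in smooth muscle cells by 3.90 and than in endothelial cells by 8.84. Slc7a11, the cystine and glutamate exchanger, stood at 957, 237 and 504 CPM in 32 fibroblasts and at 0 in all 3 classes. This made it at least 71.3-fold, 109-fold and 260-fold higher than in pericytes, smooth muscle and endothelial cells, while under DESeq2's Wald test its adjusted p was 0.253, 0.182 and 0.0867. Slc13a4, the sulphate carrier whose promoter is printed above, was found in 17 fibroblasts at 235, 142 and 124 CPM, against at most 14.5 CPM elsewhere among the classes (log2 difference 5.56 from pericytes, adjusted p 0.00109). The organic anion carrier Slc22a6 stood at 0 CPM in ULI, 23.7 in ULC and 223 in control fibroblasts (UMIs in 11 cells, of which 1 held 34.3% of its UMIs).

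The connexins of meningeal gap junctions accompanied them. Gjb2 stood at 604 CPM in ULI, 237 in ULC and 1041 in control fibroblasts, against 23.0, 0 and 10.9 CPM in pericytes (log2 difference 5.22, SE 0.65, adjusted p 1.54e-13). Gjb6 stood at 537, 166 and 471 CPM and was higher than in smooth muscle cells by 6.43 and than in endothelial cells by 5.71. Gja1, the most widespread connexin, was higher than in pericytes by 5.39 and did not differ past the test from endothelial cells (0.44, adjusted p 0.593). Gjb6 and Gja1 also mark astrocytes. Of 6 astrocyte markers, Agt and Aqp4 were at 0 in fibroblasts, and the 4 with a UMI included Slc6a11 in ULI and Fgfr3 in ULC. These markers summed to 857 CPM in fibroblasts over the libraries, against 596 CPM in all other cells. Over 9 genes for junctions and adhesion, 5, 6 and 4 were higher and 2, 1 and 1 lower than in pericytes, smooth muscle and endothelial cells. Cdh5, the vascular cadherin, was found in 14 fibroblasts at 134, 71.2 and 124 CPM, at 0 in pericytes and smooth muscle cells, and was lower than in endothelial cells (log2 difference -2.45, SE 0.46, adjusted p 1.84e-06).

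Secreted factors came next. Cxcl12, the chemokine of stromal niches, stood at 2569 CPM in ULI, 1757 in ULC and 2376 in control fibroblasts, against 83.0, 43.5 and 87.0 CPM in pericytes (log2 difference 4.79, SE 0.38, adjusted p 4.42e-33). It did not differ past the test from endothelial cells (1611, 1463 and 4727 CPM, log2 difference -0.32, adjusted p 0.547). Its scavenger receptor Ackr3 was lower than in each class, at 16.8, 71.2 and 6.55 CPM in fibroblasts against 1295, 783 and 675 CPM in pericytes (log2 difference -5.55, SE 0.53, adjusted p 9.38e-23). Fibroblasts thus held more of the ligand and less of the receptor than pericytes. Against endothelial cells only the receptor differed past the test. Il33, a nuclear alarmin, stood at 739, 142 and 563 CPM in 32 fibroblasts and was higher than in each class by 6.36 to 7.28.

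Of 16 BMP and TGF-beta genes, 4 were higher than in pericytes, 4 than in smooth muscle cells and 6 than in endothelial cells, and 1, 5 and 2 were lower. Bmp7 stood at 604 CPM in ULI, 855 in ULC and 288 in control fibroblasts, with 14.5 CPM in ULC pericytes as its single value above 0 in the other classes (log2 difference from pericytes 7.22, SE 0.89, adjusted p 1.01e-13, and 0.348 under DESeq2's Wald test). Bmp6 stood at 487, 237 and 196 CPM and was at 0 in pericytes and endothelial cells, so that fibroblasts were at least 34.1-fold and 125-fold higher. Tgfb2, a ligand made by mural and endothelial cells here, had 1 UMI in fibroblasts and was lower than in each class (log2 differences -4.59, -5.97 and -5.76). Wnt5a, a ligand of the non-canonical WNT pathway, stood at 806, 546 and 759 CPM and was higher by 4.65, 5.79 and 2.44.

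The IGF genes were uneven. Igf1, Igfbp2, Igfbp4 and Igfbp5 were higher than in every class, out of 9 genes tested. The call of Igfbp4 against smooth muscle cells (log2 difference 0.93, adjusted p 0.0368) was lost without control (0.12, adjusted p 0.914) and without the 6 ULC cells described further on (0.65, adjusted p 0.246). Igfbp7 was lower than in pericytes and smooth muscle cells. Igfbp2, a binding protein of the leptomeninges, stood at 319 CPM in ULI, 380 in ULC and 884 in control fibroblasts and was higher by 7.06, 6.04 and 6.93, with adjusted p of 0.0961, 0.0957 and 0.117 under DESeq2's Wald test. Igfbp5 was patchy, at 33.6, 1116 and 1139 CPM in only 20 fibroblasts. Its difference from smooth muscle cells was 2.44 (adjusted p 2.00e-05), and 1.37 (adjusted p 0.182) without those 6 ULC cells and 1.35 (adjusted p 0.229) without control. Igfbp7, the vascular binding protein angiomodulin, stood at 1276, 855 and 1159 CPM in fibroblasts against 3190, 2117 and 2328 CPM in pericytes (log2 difference -1.33, SE 0.29, adjusted p 0.000109, and 0.0898 without ULI). Igf2 and Ptgds, both known from meninges, were scarce, with 6 UMIs in 5 cells and 12 UMIs in 3 cells.

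Retinoic acid synthesis was represented by Aldh1a1 rather than by Aldh1a2. Aldh1a1, a retinaldehyde dehydrogenase, stood at 3072 CPM in ULI, 1971 in ULC and 2114 in control fibroblasts, against 452, 290 and 305 CPM in pericytes (log2 difference 2.67, SE 0.34, adjusted p 7.09e-13, and 0.0911 under DESeq2's Wald test). It was higher by 5.84 than in smooth muscle cells and by 6.32 than in endothelial cells. Aldh1a2, the enzyme known from embryonic meninges, had 25 UMIs in 10 cells. Of 6 retinoid genes, 2, 3 and 2 were higher than in the 3 classes.

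Apod, the lipid-binding apolipoprotein D, stood at 57885 CPM in ULI, 48343 in ULC and 28764 in control fibroblasts, with UMIs in 69 of 70 cells. The other classes held 549, 334 and 141 CPM in pericytes, 25.7, 7.04 and 56.8 in smooth muscle cells, and 763, 753 and 454 in endothelial cells. The log2 differences were 6.93 (SE 0.31, adjusted p 3.02e-105), 10.53 (SE 0.39, 1.46e-158) and 5.79 (SE 0.29, 1.63e-85). Among the genes furthest above pericytes or smooth muscle cells were also Edn3, the ligand endothelin 3 (638, 166 and 1591 CPM, at 0 in both), Itih2, a hyaluronan-binding protein (907, 1092 and 602 CPM), and Clec3b, or tetranectin (386, 142 and 746 CPM, at 0 in all 3 classes). Cyp1b1, a cytochrome P450 of vessel-associated cells, stood at 1142, 1163 and 1342 CPM and was at 0 in endothelial cells. The genes furthest below their neighbours were at 0 UMIs in fibroblasts. Among them were Art3 (1102, 769 and 740 CPM in pericytes), Pcp4l1 and Map3k20 (818, 761 and 898 CPM, and 652, 620 and 773 CPM, in smooth muscle cells), and the endothelial genes Ly6a (6508, 4489 and 2682 CPM), Ptprb (3227, 2859 and 2416 CPM) and Kdr (1416, 1229 and 2803 CPM). A sum of 0 over the fibroblasts allows up to 11.8 CPM.

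Housekeeping and stress genes were also read. Of 81 ribosomal protein genes, 1 was lower than in smooth muscle cells and 13 lower than in endothelial cells, beside 7.93% and 10.1% of all genes. Heat shock genes were lower than in smooth muscle cells in 6 of 10 and than in endothelial cells in 4, and of these 4 calls 4 were lost without control and 2 each without ULI and without ULC. Without ULI 2 of the 6 calls against smooth muscle cells were lost. Immediate early genes, which neurons and stromal cells switch on within minutes of a stimulus or of dissociation, were higher than in pericytes in 12 of 20 (median 1.94), lower than in smooth muscle cells in 10 (median -0.95), and 5 higher and 2 lower against endothelial cells. Fos stood at 2182 CPM in ULI, 5699 in ULC and 589 in control fibroblasts, against 4491, 5987 and 2478 CPM in smooth muscle cells (log2 difference -1.25, adjusted p 0.000193, and 0.0730 without control). Of the 12 calls against pericytes, 5 were lost without ULC (Dusp1, Egr2, Fosb, Junb and Zfp36) and 5 without ULI, and of the 10 against smooth muscle cells 5 were lost without control, 4 without ULI and 3 without ULC. Of the 7 against endothelial cells 4 were lost without ULC.

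Layer markers did not sort the fibroblasts cleanly. Of 8 markers of pial fibroblasts, 2 or more had a UMI in 54 of 70 cells (16 of 23 ULI, 11 of 20 ULC and 27 of 27 control). Of 12 arachnoid and barrier markers, 2 or more had one in 41 cells (12, 9 and 20), and of 7 dural markers in 14 (2, 4 and 8). Pial markers summed to 6161 CPM in ULI, 4416 in ULC and 9459 in control. Arachnoid markers summed to 1679, 1330 and 4595 CPM, of which 459 control UMIs were the Cldn11 of the single deepest cell. Cldn11 was higher than in pericytes by 2.87 (adjusted p 9.34e-10), and by 0.63 (adjusted p 0.633) without that cell. At 0 in all fibroblasts were the arachnoid keratins Krt8 and Krt18 and the transporter Slc47a1.

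Levels differed among single fibroblasts beyond what counting of UMIs gives. Over the 61 fibroblasts that passed no other gate, the chi-square of counts per degree of freedom, which is about 1 for counting error alone, had a median of 2.68 over 214 genes with 100 or more UMIs. It was above 5 in 44 genes and above 10 in 16. Apod was the most uneven (105), with single cells at 0 to 128821 CPM and a median of 25411 CPM. Mgp, a matrix inhibitor of calcification, followed among non-mitochondrial, non-myelin genes at 17.9, with UMIs in 28 of the 61 cells, then Igfbp5 at 17.5 (19 cells) and Vtn at 15.1. Aldh1a1 stood at 10.1, Tgfbi at 9.19, Ptn at 8.45 and Col1a1 at 8.25. Col1a2 was present in every fibroblast, from 356 to 22388 CPM with a median of 6069 CPM. This unevenness includes the differences between libraries.

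A set of 6 ULC fibroblasts stood apart. They held all 38 fibroblast UMIs of Inmt, an indolethylamine methyltransferase, which was at 0 in ULI and control fibroblasts and was found in 12 barcodes of the ULC library alone (65 UMIs). They were picked for this after the values were seen, so what follows is a description without a test, and the set and the ULC library cannot be told apart. With 1599 to 3235 UMIs each they were not shallow (median 2822, against 1553 in the other 14 ULC fibroblasts). Vtn, Ptn, Aldh1a1, Slc6a20a and Col15a1 were all at 0 in them, which allows up to 238 CPM at a 95% Poisson limit. In the other ULC fibroblasts these stood at 6120, 6270, 3116, 1727 and 1502 CPM.

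Pdgfra and Lum, which the rule did not use, had UMIs in 6 and 5 of the same 6 cells. Pdgfra stood at 2067 CPM in the 6 cells and 3192 CPM in the other ULC fibroblasts, and Lum at 581 and 488 CPM. Other fibroblast genes were missing from the 6 cells. Slc6a13, Col6a2, Col4a5 and Bmp7 were at 0, against 638, 713, 1840 and 1352 CPM in the other ULC fibroblasts. Among the rule's own genes Dcn was alike (5813 and 5745 CPM), Col1a2 was lower (969 and 5294 CPM) and Fbln2 was at 0 (against 1164 CPM). Several genes were far higher in them than in the other ULC, the ULI and the control fibroblasts. Plpp3, a lipid phosphatase, stood at 7944 CPM, against 751, 688 and 439 CPM in those 3 sets. Igfbp4 stood at 6200 CPM, against 1990, 739 and 1270 CPM. Lox, the collagen-crosslinking enzyme, stood at 3036 CPM, against 526, 672 and 308 CPM. Nrp1, a co-receptor of VEGF and semaphorins, stood at 1744 CPM, against 0, 50.4 and 32.7 CPM. The gene Tcf21, a transcription factor of fibroblasts in other organs, had UMIs in 4 of the 6 cells. Igfbp5 stood at 2906 CPM in them, although 1 ULC cell held 85.1% of its ULC UMIs.

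**Figure D3:**
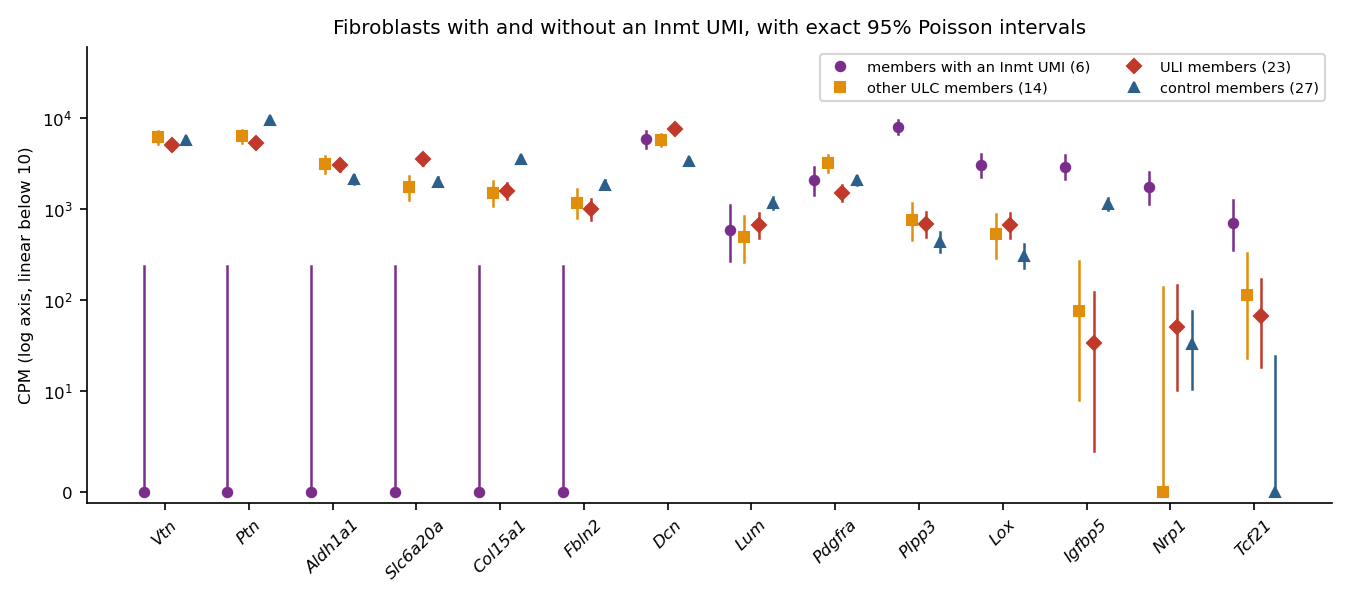
Levels in CPM (y axis, log scale above 10) of 14 genes in the 6 fibroblasts with an Inmt UMI (purple circles, all in ULC), the other 14 ULC (orange squares), 23 ULI (red diamonds) and 27 control fibroblasts (blue triangles), each summed, with exact 95% Poisson intervals as vertical lines. Vtn, Ptn, Aldh1a1, Slc6a20a and Col15a1 lie at 0 in the Inmt cells, while Lum and Pdgfra are near the other ULC cells and Plpp3, Lox and Nrp1 lie above all others (Dcn and Fbln2 belong to the rule).

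Between groups, each library was set against another within fibroblasts. A gene was counted where its CPM differed at least 2-fold and the exact 95% Poisson intervals did not overlap, among genes with at least 20 UMIs in both libraries together. These intervals cover counting error only and cells of a library are not replicates, so the counts compare libraries, not conditions. For ULI against control, 352 of 2213 genes were counted (15.9%), 168 higher in ULI (7.59%) and 184 lower (8.31%), and 184 genes in all without the 9 fibroblasts of another gate. For ULC against control, 374 of 2018 (18.5%) were counted, 188 higher (9.32%) and 186 lower (9.22%), with 247 in all without those cells and 215 without the 6 Inmt cells. For ULI against ULC, 155 of 966 (16%) were counted, 69 higher (7.14%) and 86 lower (8.9%), with 129 and 112 in the same order. ULI and ULC were set against the same control library. A 2-fold difference alone was met by 34.6%, 41.7% and 32.9% of genes. The median log2 ratios over all genes were 0.01, -0.18 and 0.18.

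Among the lowest ratios of ULI and ULC to control were myelin genes (Mal, Cnp, Mag and Ugt8a among them), of which the deepest control fibroblast held 93.0% to 98.8% of the control UMIs. Without it, 214 genes were counted for ULI and 283 for ULC. The highest ratio of ULI to control was that of Rgs5, held by 1 cell. Ttr stood at 15 UMIs in ULI, 54 in ULC and 6 in control fibroblasts (log2 ratios to control 2.68 and 5.03), and in all other cells of the libraries its log2 ratios were 1.91 and 4.15. Cells of the choroid plexus gate made up 3.74% of ULI, 10.4% of ULC and 0.933% of control cells. Those of the microglia gate made up 14.8%, 7.55% and 37.0% in the same order. The sum of all other cells thus mixes classes in unlike shares, and its ratios here and below cannot tell make-up from level. Bgn, the proteoglycan biglycan, was 2.04 higher in ULC than in control fibroblasts on the log2 scale, and 4.35 higher in all other cells.

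Immediate early genes were set against control next, beside 7.59% (ULI) and 9.32% (ULC) of all genes higher than in control. Of 14 measured for ULI against control, 6 were higher and 0 lower, with a median log2 ratio of 1.54 (0.93, with 4 of 11 higher, without the 1 cell that held most of each gene), and of 13 for ULC, 9 were higher and 0 lower, with a median of 2.69. Fos stood at 2182 CPM (95% interval 1823 to 2591) in 19 of 23 ULI fibroblasts, 5699 CPM (5000 to 6467) in 16 of 20 ULC and 589 CPM (474 to 724) in 15 of 27 control fibroblasts. Its log2 ratios to control were 1.89 in ULI and 3.27 in ULC, against 1.05 and 0.77 in all other cells. In pericytes the ratios were 1.98 and 2.38, and in endothelial cells 1.72 and 1.70. Egr1 stood at 1880 CPM (1548 to 2262), 3657 (3102 to 4282) and 458 (357 to 579), with log2 ratios of 2.04 and 3.0 in fibroblasts, 2.46 and 2.87 in pericytes, and 0.08 and -0.29 in all other cells. The ratios of these genes to control were thus also high in pericytes, and not in the sum of all other cells for Egr1.

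Fosb was mainly a ULC gene, at 218 CPM in ULI, 2374 in ULC and 65.5 in control fibroblasts, and its log2 ratio of ULC to control was 5.18 in fibroblasts and 2.27 in all other cells. Klf4, a zinc finger factor of stromal and endothelial cells, stood at 806, 1401 and 183 CPM (2.14 and 2.93). Zfp36, which encodes the mRNA-destabilising protein tristetraprolin, stood at 722, 997 and 105 CPM in 13, 8 and 6 cells (2.78 and 3.25), with log2 ratios of 2.21 and 3.07 in smooth muscle cells and 0.27 and -0.59 in all other cells. With each cell thinned to 1000 UMIs, Fos had a UMI in 12 of 19 ULI, 13 of 14 ULC and 8 of 27 control fibroblasts, against 19 of 23, 16 of 20 and 15 of 27 unthinned. The thinning left out 4 ULI and 6 ULC cells. Without the 9 cells of another gate, 7 of 13 genes were higher in ULI and 9 of 13 in ULC, and without the 6 Inmt cells 8 of 12 were higher in ULC (median 1.97). Between ULI and ULC, of 15 genes 0 were higher and 4 lower in ULI (Fos, Fosb, Junb and Nr4a1), beside 8.9% of all genes lower. There were 4 lower again without the 9 cells and 2 without the 6 Inmt cells.

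The Zfp36 promoter carries a CArG box, the sequence bound by serum response factor, which drives many immediate early genes. It is shown since Zfp36 had the highest ratio of ULI to control among the genes of the list that were counted. The window is chr7:28379179-28379478 on the minus strand (GRCm38.p6, RefSeq), with the match in capitals 58 bases before the start.
Zfp36: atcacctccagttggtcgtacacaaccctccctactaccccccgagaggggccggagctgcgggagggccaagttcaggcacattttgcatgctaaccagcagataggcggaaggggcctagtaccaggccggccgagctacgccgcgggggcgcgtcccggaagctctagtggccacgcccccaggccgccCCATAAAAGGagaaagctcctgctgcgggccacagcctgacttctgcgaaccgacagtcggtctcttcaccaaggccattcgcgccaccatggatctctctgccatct
A CArG box was found on either strand in 1.63% of the 32851 windows, and in 0 of the 143 windows of genes higher than in all 3 classes.

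Genes responsive to glucocorticoids were counted in the same way, beside 7.59% (ULI) and 9.32% (ULC) of all genes higher than in control. In ULI 2 of 8 were higher than in control (Sgk1 and Errfi1) and 0 lower (median log2 ratio 0.98), and in ULC 7 of 9 and 0 lower (median 1.68). Fkbp5, a chaperone of the glucocorticoid receptor, had 8 UMIs in 4 ULI cells (134 CPM), 21 UMIs in 10 ULC cells (499 CPM) and 1 UMI in control (6.55 CPM). Tsc22d3, the glucocorticoid-induced leucine zipper, stood at 1645 CPM in ULI, 2208 in ULC and 943 in control fibroblasts, with log2 ratios of 0.80 (not counted) and 1.23, against -0.15 and -0.52 in all other cells. Sgk1, a kinase induced by corticosteroids, stood at 537, 356 and 111 CPM (2.27 and 1.68), and in all other cells its ratios were 1.54 and 1.12. Without the 9 cells of another gate the counts were 2 of 8 and 7 of 9 again.

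**Figure D4:**
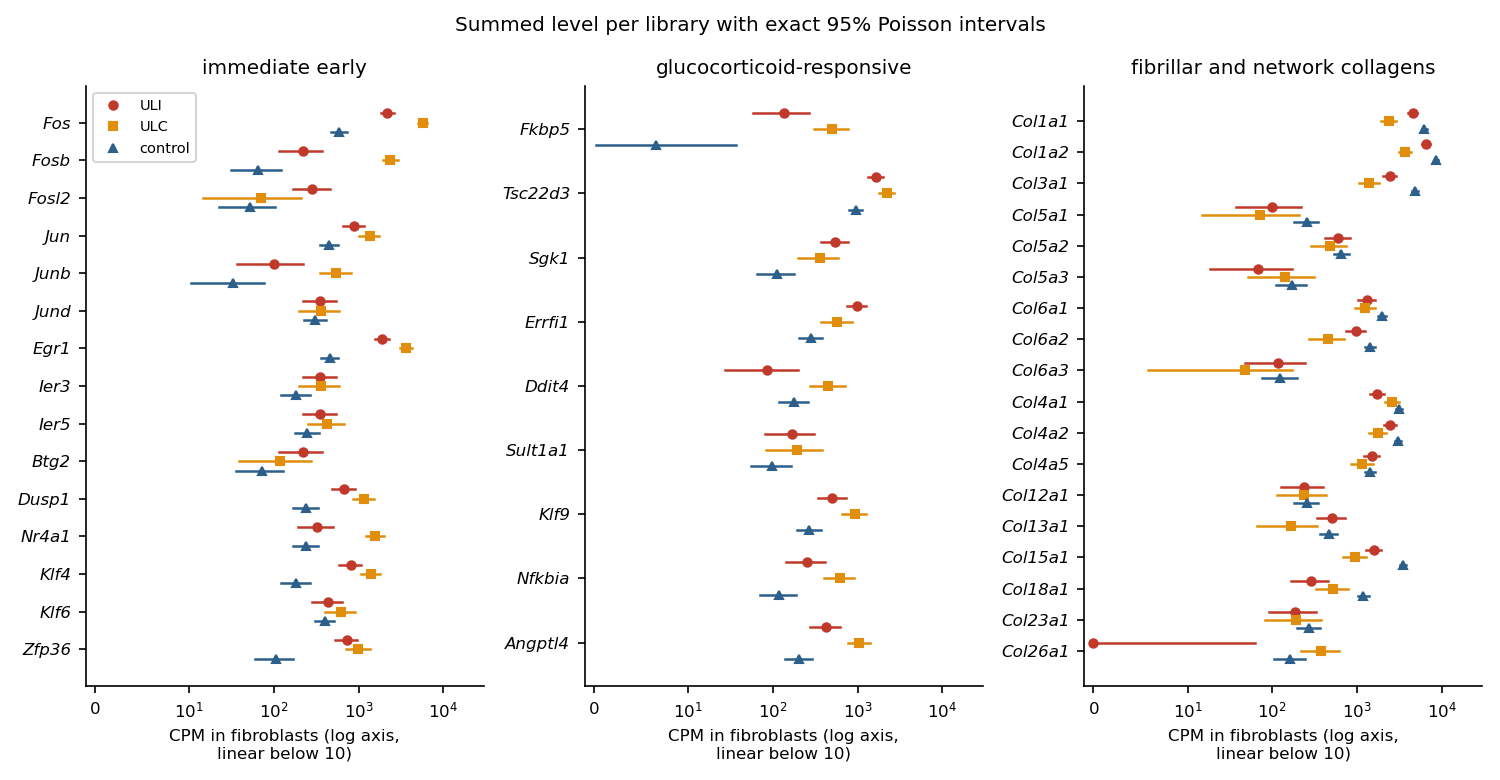
Levels in CPM (x axis, log scale above 10) of immediate early, glucocorticoid-responsive and collagen genes in the summed fibroblasts of ULI (red circles), ULC (orange squares) and control (blue triangles), with exact 95% Poisson intervals as horizontal lines. Fos lies at 2182 CPM in ULI and 5699 CPM in ULC against 589 CPM in control, while Col15a1 lies at 1578 CPM in ULI and 950 CPM in ULC against 3535 CPM in control (Col1a1, Col1a2 and Col3a1 belong to the rule).

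The collagens that were counted were lower, beside 8.31% (ULI) and 9.22% (ULC) of all genes lower than in control. Over the 15 measured collagens outside the rule, a restriction added after seeing the data, 0 were higher and 3 lower in ULI than in control (Col15a1, Col18a1 and Col26a1, median log2 ratio -0.57), and 0 higher and 4 lower in ULC (Col6a2, Col13a1, Col15a1 and Col18a1, median -0.67). Col15a1 stood at 1578 CPM (1275 to 1931) in 14 of 23 ULI, 950 CPM (679 to 1293) in 6 of 20 ULC and 3535 CPM (3243 to 3846) in 26 of 27 control fibroblasts, log2 ratios of -1.16 and -1.90. In all other cells Col15a1 had ratios of -1.23 and -1.24. Col18a1, the collagen that yields endostatin, stood at 285, 522 and 1185 CPM (-2.05 and -1.18), against 1.0 and 2.69 in all other cells. Without the 9 cells of another gate 7 of the 15 were lower in ULI (median -0.92) and 6 in ULC (median -1.15), and without the 6 Inmt cells 2 were lower in ULC (median -0.15). Without the deepest control cell 5 were lower in ULI and 6 in ULC. With the 3 rule collagens Col1a1, Col1a2 and Col3a1, 3 and 7 of 18 were lower. The control members also held more rule markers per cell, and what part that has in these ratios was not tested.

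A few single genes ran with or against these lists. Bmp7 was higher than in control by 1.07 in ULI and 1.57 in ULC on the log2 scale, and its ratios in all other cells were 1.26 and 2.04. Igfbp5 was lower in ULI, with 2 UMIs in 2 ULI cells against 174 UMIs in 13 of 27 control cells. Apod was 1.01 higher in ULI on the log2 scale, and -2.08 in all other cells. Between the sides, Il33 was higher in ULI than in ULC by 2.37 (44 UMIs in 9 cells against 6 UMIs in 3), Slc6a20a by 1.69 (210 against 46 UMIs) and Slc7a11 by 2.01, while Plpp3 (-2.30) and Igfbp4 (-2.26) were lower in ULI. Plpp3 and Igfbp4 were among the genes that the 6 Inmt cells held at high level.

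Fibroblasts made up 0.478% of ULI cells (exact 95% binomial interval 0.303 to 0.716), 0.440% of ULC (0.269 to 0.679) and 0.586% of control (0.387 to 0.852), intervals that overlap. Of the 4 vascular classes together they were 5.79% in ULI (3.71 to 8.57, 23 of 397 cells), 7.72% in ULC (4.78 to 11.7, 20 of 259) and 10.8% in control (7.24 to 15.3, 27 of 250). ULI held 119 pericytes and 156 smooth muscle cells against 36 and 34 in control, and these enter the share, while the intervals of ULI and control overlap. With each cell thinned to 500 UMIs the shares were 0.339%, 0.316% and 0.543%, with 16, 14 and 25 fibroblasts. With at least 4 markers there were 17, 14 and 26. Overlap of intervals is no test of a difference in share, and none was run. Fewer cells captured cannot be told apart from fewer in the tissue.

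**Figure D5:**
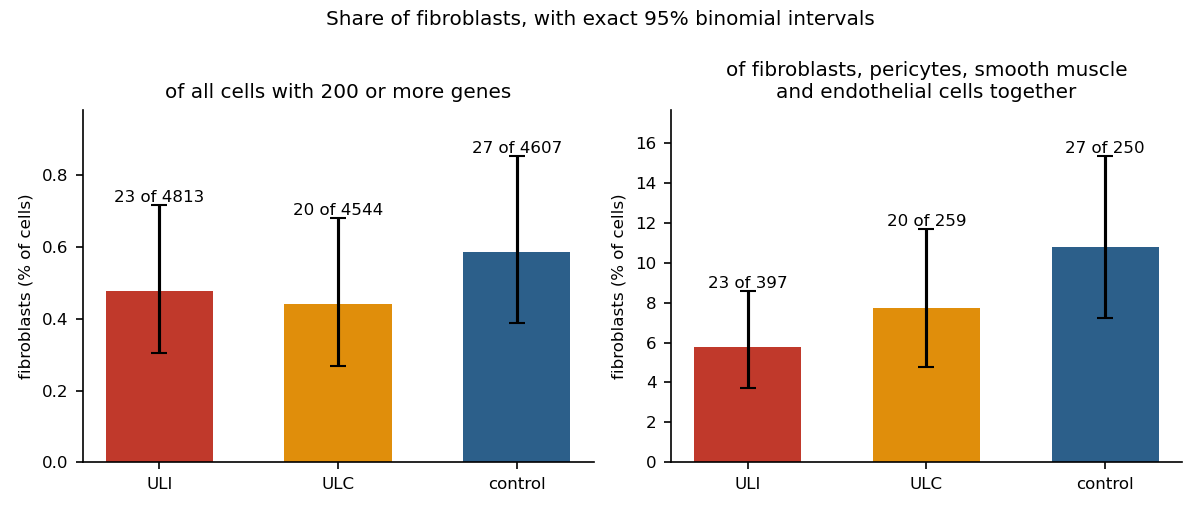
Share of fibroblasts in percent (y axis) of all cells with 200 or more genes (left) and of the 4 vascular classes together (right) in ULI, ULC and control, with bars from 0, exact 95% binomial intervals as error lines and the counts above them. The intervals of the 3 libraries overlap in both panels.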

How the data were processed

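Cells of the MVN were read in 3 libraries. The deposited values are UMI counts, whole numbers for each gene in each barcode. For these counts the authors' notes list CASAVA 1.8, UMI-tools, Seurat and mm10. Aligner, annotation and barcode filter: not given in the sources used here. The platform is unsettled, since the study's methods name a 10X protocol, the series text Drop-seq, and the labels BD Rhapsody. Barcodes are running numbers, so those shared between libraries could not be counted, and no columns were identical. The libraries held 17428194 (ULI), 12768983 (ULC) and 27019650 (control) UMIs. PCR copies are removed by UMIs, and all intervals cover counting error only.

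The 912 barcodes under 200 genes were left out. No doublet caller was run, and members passing the gate (marker rule) of 1 of 11 other classes were instead left out as an alternative. Pericytes, smooth muscle and endothelial cells were taken with at least 3 of their own markers and no other gate. UMIs were summed per class and library (12 sums) and fitted with edgeR 4.0.16 (TMM, quasi-likelihood, library as a term, genes with 30 or more UMIs, common biological coefficient of variation 0.371). Groups were compared by CPM with exact Poisson intervals, and shares by Clopper-Pearson intervals. A sum of 0 was set to 3 counts per class. Further tools were DESeq2 1.42.0 under R 4.3.3, and, under Python 3.11.15, scipy 1.17.1, numpy 2.4.6, matplotlib 3.10.9 and pandas 2.3.3.

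The members and the 30 gene lists were chosen with earlier results of these data known. Named were genes of those lists, the 10 highest and 5 lowest differences per class comparison among called genes with 50 or more UMIs, and the 10 highest and lowest ratios per group comparison. Inmt, Plpp3, Nrp1 and the 6 cells with Inmt were chosen after their values were seen. Promoters came from RefSeq (GRCm38.p6). Tested on simulated data, the class fits recovered 78%, 80% and 78% of genes changed 8-fold against pericytes, smooth muscle and endothelial cells, and at most 1% of those changed 2-fold. The group counts were simulated with counting error alone, without the spread among cells that the real counts hold. They recovered 83.7%, 74.4% and 83.1% of genes changed 4-fold in ULI against control, ULC against control and ULI against ULC. Results for some genes are not reported here.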

Additional observations from a re-analysis of the deposited data

How the results depend on the processing

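Without a library term, 485 genes differed from pericytes. Leaving out 1 library at a time gave 429 to 570 calls against pericytes, 650 to 847 against smooth muscle cells and 915 to 1162 against endothelial cells. DESeq2's Wald test called 585, 854 and 1158 genes, and of the named genes called in each comparison none changed sign under any alternative run. For ULI against control, 136 genes were counted with at least 50 UMIs, 193 without the single cell that held most of each gene, 184 without cells of another gate and 214 without the deepest control cell. For ULC against control these were 183, 246 and 247, and 215 without the 6 Inmt cells. For ULI against ULC, 47 were counted with at least 50 UMIs and 102 with at least 4 markers. The alternatives without the Inmt cells and without the deepest control cell were chosen after seeing the data.

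Taken over the 4 vascular classes, the share of fibroblasts was 5.79% in ULI, 7.72% in ULC and 10.8% in control. Cldn11 changed direction. Its log2 ratio of ULI to control was 0.47 without cells of another gate and 0.61 without the deepest control cell, and that of ULC to control 1.41 and 1.49, and 1.04 without the cell that held most of it. The ratio of Lox in ULI to ULC was 0.35 without the Inmt cells. No paired analysis was possible because each group was 1 library, and in the class fits the library term served as the block.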
